A study of Homo sapiens with 6 samples.

Results

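The clustered protocadherins are cadherin-family cell adhesion proteins encoded side by side on the long arm of chromosome 5, in an alpha, a beta and a gamma cluster that are all read from the plus strand. Here they were examined by the poly(A) 3′ ends found in IMR-32, a line of human neuroblastoma cells. The members were the protein-coding genes of Gencode release 44 on chromosome 5 whose symbols begin PCDHA, PCDHB, PCDHGA, PCDHGB or PCDHGC followed by an isoform name. This gave 53 of 20046 protein-coding genes, of which 15 were alpha, 16 beta and 22 gamma genes. A peak of 3′-end reads was counted as a member peak if its summit lay in the body of one of these genes or up to 4 kb past the 3′ end. This gave 117 of the 200023 peaks listed, of which 47 were in the alpha, 30 in the beta and 40 in the gamma cluster.

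The data came from poly(A) 3′-end sequencing of 6 IMR-32 libraries. Cells were kept in the solvent DMSO (2 libraries) or exposed to THZ531 at 400 nM, for 2 h in 2 libraries and for 6 h in the other 2. This compound binds covalently to and inhibits CDK12 and CDK13, kinases that phosphorylate RNA polymerase II, and the study asked how it altered transcript ends. The authors pooled the reads and deposited 1 list of peaks, with no strand and no value for any single library. DMSO and THZ531 cells could therefore not be compared here, no value below has a replicate error, and intervals cover counting error only. The same cell line, with no engineered allele named in the labels, was used in all 3 groups, and IMR-32 is a single line from 1 tumour. To describe the line, 11 of 11 adrenergic neuroblastoma genes had a peak at a transcript end. Their tallest summits had 19 to 123 reads, among them PHOX2A with 123 and MYCN with 100. Of 5 genes of other cell types, COL1A1 with 15 reads and EPCAM with 7 had such a peak. PTPRC, ALB and PECAM1 had none. Among all protein-coding genes 67.4% had such a peak, with a median of 24 reads at the tallest. Its presence therefore says little about cell type, and heights are not levels of expression.

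In the alpha and gamma clusters each isoform begins with its own promoter and its own large variable exon, which encodes the extracellular cadherin repeats, the membrane span and part of the cytoplasmic tail. That exon is spliced to short constant exons at the far end of the cluster, so all full-length isoforms of a cluster share the same 3′ end and cannot be told apart there. Beta genes have no constant exons, and each ends on its own. The choice of promoter, held by CTCF and cohesin, gives each neuron its own set of isoforms, whose matching between cells governs self-avoidance of neurites, while the C-type isoforms at the ends of the alpha and gamma arrays are used more uniformly.

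A read in this assay starts where a transcript meets its tail. The right edge of a peak is therefore the 3′ side for these plus-strand genes, and a polyadenylation signal, canonically AATAAA, is looked for just before it. The sequences below were read from the GRCh38 genome, plus strand, 5′ to 3′, and are the last 30 bases before the 3′ edge of the peak, with any of 12 known signal hexamers in capitals. The first set holds the shared ends of the alpha and gamma clusters, since these are the ends that every full-length isoform uses. They lie at chr5:141012319-141012348 and chr5:141011551-141011580 in the alpha constant exon and at chr5:141512948-141512977 in the gamma constant exon.
alpha constant exon, last end: tgctAATAAATGAAaatggtggtatgaaag
alpha constant exon, earlier end: aagacacAGTAAAatttctttcttaaatca
gamma constant exon end: aaaaatAATAAAacgtttcttctgaaaagc

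The second set comes from the tallest peaks of single genes that had a signal, and from the annotated ends of short transcripts that stop after a variable exon. The peaks of PCDHA4, PCDHB16 and PCDHGA6 also had AATAAA before their left edge on the minus strand, at PCDHGA6 43 and 38 bp before it. The stretches lie at chr5:140931853-140931882 (PCDHAC1), chr5:140825825-140825854 (PCDHA5), chr5:140817564-140817593 (PCDHA4), chr5:141379614-141379643 (PCDHGA6), chr5:141195616-141195645 (PCDHB10), chr5:141185963-141185992 (PCDHB16) and chr5:141226266-141226295 (PCDHB14).
PCDHAC1: gattctagaAATAAAatatttattgctttc
PCDHA5: aaaaaAATAAATATAccatgatacaaactc
PCDHA4: tcaATTAAAtcaataattttaataattcca
PCDHGA6: acaAATAAAatatttctctgatggaaaaac
PCDHB10: taaaAATAAAacattttgaaatgtgtggtt
PCDHB16: attactgaATTAAAaaatcagaggtccctg
PCDHB14: taaaAATAAAaagcgttgctgaatctgggt

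The last set shows peaks of another kind. The tallest member peak, in the first intron between the gamma constant exons (chr5:141496083-141496112), had no hexamer. The peak in the coding part of the last alpha constant exon (chr5:141009851-141009880) ended in the run of AAG and AAA codons for the lysine-rich tail of the alpha proteins. For the peak past the end of PCDHB11, the 30 bases after the 3′ edge (chr5:141204220-141204249) are given with each A in capitals, because an A-rich stretch in the genome can prime the reverse transcription on its own.
gamma constant intron: cccaccacccaccaacaccccgctctcttc
alpha constant exon, coding part: AAGAAAaagAAGAAAaagaagaagggtaac
after the PCDHB11 peak: AAAAAAAAAAAAAAAAAAAgAAAgAAAgAA

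Peak height is given as reads at the summit, which is the number of reads, each extended to 100 bp, that cover the highest point of the peak. It was solved from the deposited fold enrichment and p-value of each peak. No peak in the list exceeded 200 reads, which is what 100 start positions on each of 2 strands allow. Height therefore counts distinct start positions and is not a level of expression, and heights of different genes are given only as descriptions. Read density around a peak is given as reads per 10 kb, the background that the peak caller used, with a floor of 33.7 reads per 10 kb. For all listed peaks the median height was 11 reads, and the quartiles were 7 and 16.

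The member peaks had a median of 10 reads at the summit and ranged from 4 to 98. The median was 9 in the alpha, 11 in the beta and 9.5 in the gamma cluster. Of the 117 peaks, 79 had a −log10 q of at least 5, the cutoff used in the study, against 69.3% of all listed peaks, and 5 had at least 20, against 6.49%. Those 5 were the PCDHAC1 peak with 46 reads, the tallest alpha constant-intron peak, the tallest peaks of PCDHB16 and PCDHB10, and the tallest gamma constant-intron peak. There were 14 member peaks of 20 or more reads (12%), compared with 17.4% of the list, and the map of the clusters shows that they lay at a few places.

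**Figure D1:**
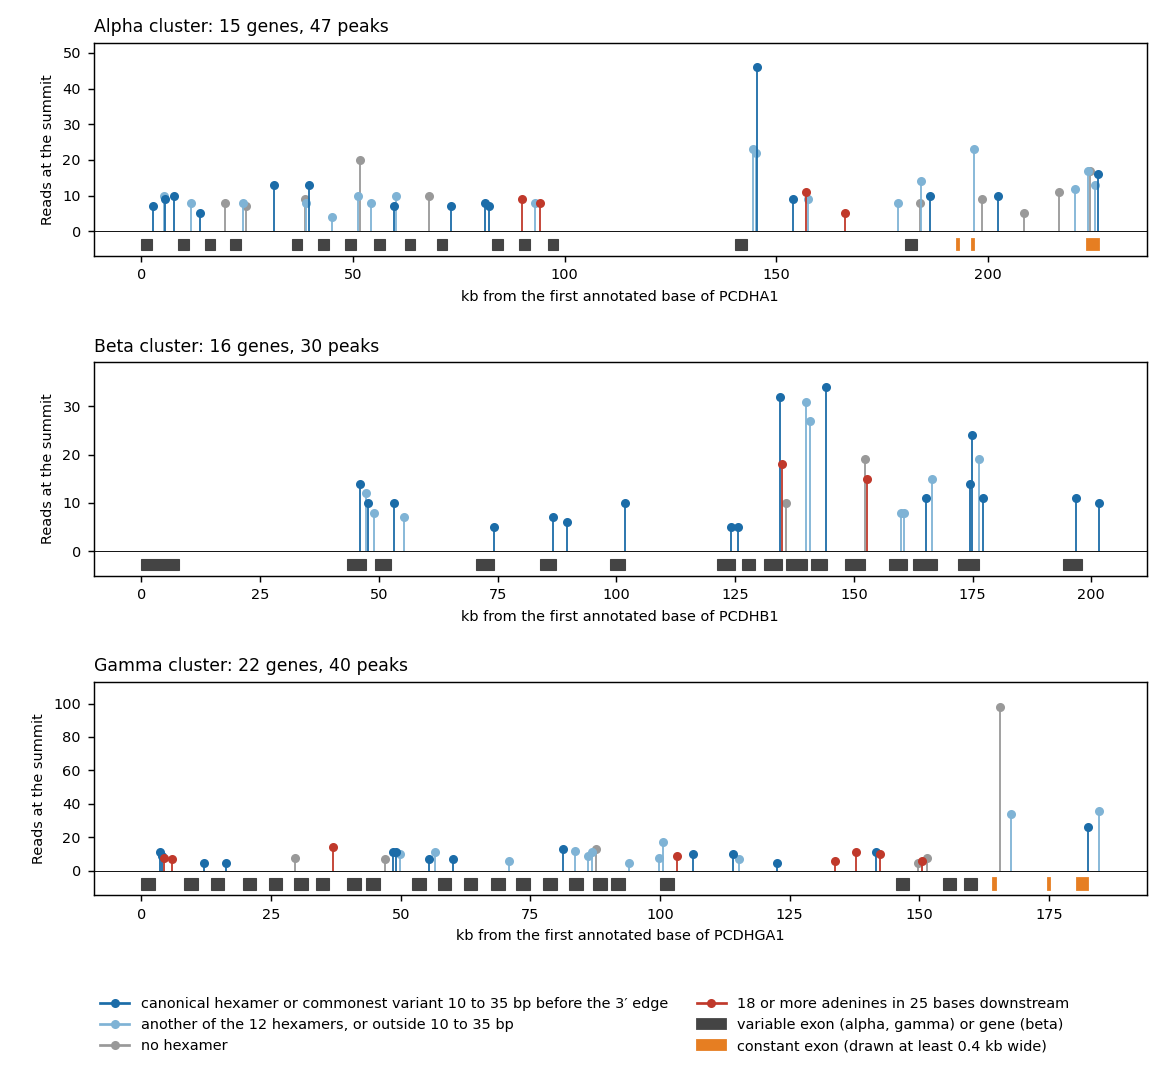
Reads at the summit of each of the 117 member peaks (vertical axis, a separate scale for each cluster) against distance in kb from the first annotated base of the cluster, with exons as boxes below and colours for the sequence beside the peak (a peak with 18 or more adenines is red whatever its hexamer). The tallest peaks stand after PCDHAC1 (46 reads), at PCDHB16 to PCDHB10 (31 to 34 reads) and in the first intron between the gamma constant exons (98 reads).

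A segment was taken to run from a variable exon to the next one, or over a beta gene and up to 4 kb past it. In the alpha and gamma clusters, a segment also lies inside the bodies of all genes that start before it. A segment peak was therefore given to a gene by position only and could come from a transcript of an earlier gene. Of the 53 genes, 42 had a listed peak in their own segment, whereas by the wider rule for all protein-coding genes, the whole body and 4 kb past the end, 81.1% had one. By that wider rule every alpha and gamma gene had a peak, because their bodies all reach the shared constant exons.

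Variable exons themselves held few peaks. In the alpha and gamma clusters together, 5 of the 117 member peaks had their summit in a variable exon, while 68 lay after a variable exon and before the next one. Per kb, alpha variable exons held 0.0259 peaks and the stretches after them 0.2335, and in the gamma cluster the values were 0.0699 and 0.2988. Over the bodies of all protein-coding genes and 4 kb past them, the density was 0.1221 peaks per kb. The last alpha constant exon held 4 peaks and the last gamma constant exon 1.

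The constant exons carry the common cytoplasmic domain of each cluster. In the alpha cluster they are 59, 89 and 2721 bp long, and all 4 constant-exon peaks lay in the longest, which holds the stop codon and the 3′ untranslated region. From 5′ to 3′ they had 17, 17, 13 and 16 reads at the summit, so none stood far above the others. The last had its 3′ edge 1 bp past the annotated end at 141012347, with AATAAA starting 26 bp before the edge. The one before it also ended 1 bp past an annotated end, at 141011579, with AGTAAA 23 bp before it. The second had no hexamer, and 16 of 25 bases after it were A.

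In the gamma cluster the constant exons are 59, 89 and 2029 bp long. The peak at the end of the last one had 26 reads at the summit, and its 3′ edge fell on the annotated end at 141512977 with AATAAA 24 bp before it. Its −log10 q was 9.38, since the read density around it was high, 454 reads per 10 kb, compared with 97 at the last alpha peak. The 5 constant-exon peaks of both clusters had summits from 200 bp before to 600 bp after an annotated end. The first and second alpha peaks ended 30 and 90 bp past such an end. Together the 5 held 89 of the 1462 reads summed over member summits (6.09%), so most of the summed height lay elsewhere. This share counts start positions and says nothing of how much of each transcript was made.

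The introns between the constant exons held 6 peaks in the alpha and 2 in the gamma cluster. The gamma peak at chr5:141495808-141496112 was the tallest of all members, with 98 reads at the summit and a −log10 q of 82.7. It was number 44 of the whole list by height, and its 3′ edge lay 1247 bp past the first constant exon. It had no hexamer within 100 bases on either strand, and at most 6 of 25 bases after it were A. The other gamma peak, at chr5:141498081-141498196, had 34 reads, and AATACA started 20 bp before its edge. Around these 2 peaks the density was 494 and 483 reads per 10 kb. The tallest alpha intron peak, at chr5:140982874-140982994, had 23 reads, AAGAAA 19 bp before the edge and 17 of 25 A after it. It lay 431 bp past the second constant exon.

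A single peak was assigned past a cluster end. It lay at chr5:141515014-141515261, with 36 reads and its summit 2129 bp past the gamma end, and is also at the 3′ end of DIAPH1, a formin gene of the minus strand that converges on the gamma cluster. Its left edge was within 2 bp of the annotated end of DIAPH1 at 141515016, and on the minus strand AATAAA started 27 bp before that edge. On the plus strand the hexamers were AAGAAA, 73 bp before the right edge, and ATTAAA, 80 bp before it. Since the list has no strand, the reads of this peak cannot be assigned to either gene from the list alone.

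The C-type isoforms PCDHAC1, PCDHAC2, PCDHGC3, PCDHGC4 and PCDHGC5 are the last variable exons of their arrays and more like each other than like their neighbours. PCDHAC1 had 8 peaks in its own segment of 40.18 kb. The tallest, at chr5:140931599-140931882, had 46 reads at the summit, more than 98.6% of listed peaks, and ended 2557 bp past the splice donor with AATAAA 21 bp before the edge. Its 2 neighbours, at chr5:140930654-140930825 and chr5:140931324-140931466, had 23 and 22 reads. These 3 peaks lay close together, with 221 to 222 reads per 10 kb around them, whereas the other 5 peaks of PCDHAC1 had 5 to 11 reads each.

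PCDHAC2 had 3 peaks with 8, 14 and 10 reads. The tallest, at chr5:140970368-140970652, ended 1321 bp past the splice donor and had CATAAA 18 bp before its edge. PCDHGC3 also had 3 peaks, with 5, 6 and 8 reads, and none of them had a hexamer. In the order along the gene, at most 16, 21 and 14 of 25 bases after them were A. PCDHGC4 and PCDHGC5 had no peak in their segments. The segments of the 5 C-type isoforms thus ranged from 46 reads to no peak. These segments also lie within the bodies of the earlier genes of their clusters, so this is not a ranking of the isoforms.

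Among the other alpha genes, 11 of 13 had a peak in their own segment, and PCDHA11 and PCDHA13 had none, although the segment of PCDHA13 is 44.17 kb long. The tallest of these peaks was at PCDHA7 (chr5:140837652-140837780), with 20 reads, no hexamer and 1042 bp past the splice donor. PCDHA4 and PCDHA5 followed with 13 reads each. Both lie at the ends of annotated short transcripts that run past the variable exon instead of splicing to the constant exons. The 3′ edge was at the annotated end of PCDHA4 and 3 bp past that of PCDHA5, with ATTAAA 27 bp and AATAAA 25 bp before the edge. At PCDHA10 a peak ended 2 bp before such an end. The PCDHA4 and PCDHA5 peaks also lay in a gene of the minus strand. On that strand AATAAA started 29 bp before the left edge of the PCDHA4 peak, whose reads cannot be assigned to either strand. In all, 9 of the 15 alpha genes had a peak from 200 bp before to 600 bp after an annotated short end, 5 of them with a −log10 q of at least 5. For all protein-coding genes and any annotated transcript end the shares were 67.4% and 64.0%. By that wider rule every alpha gene had a peak, at the shared constant-exon end, so these counts and shares are not like for like.

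**Figure D2:**
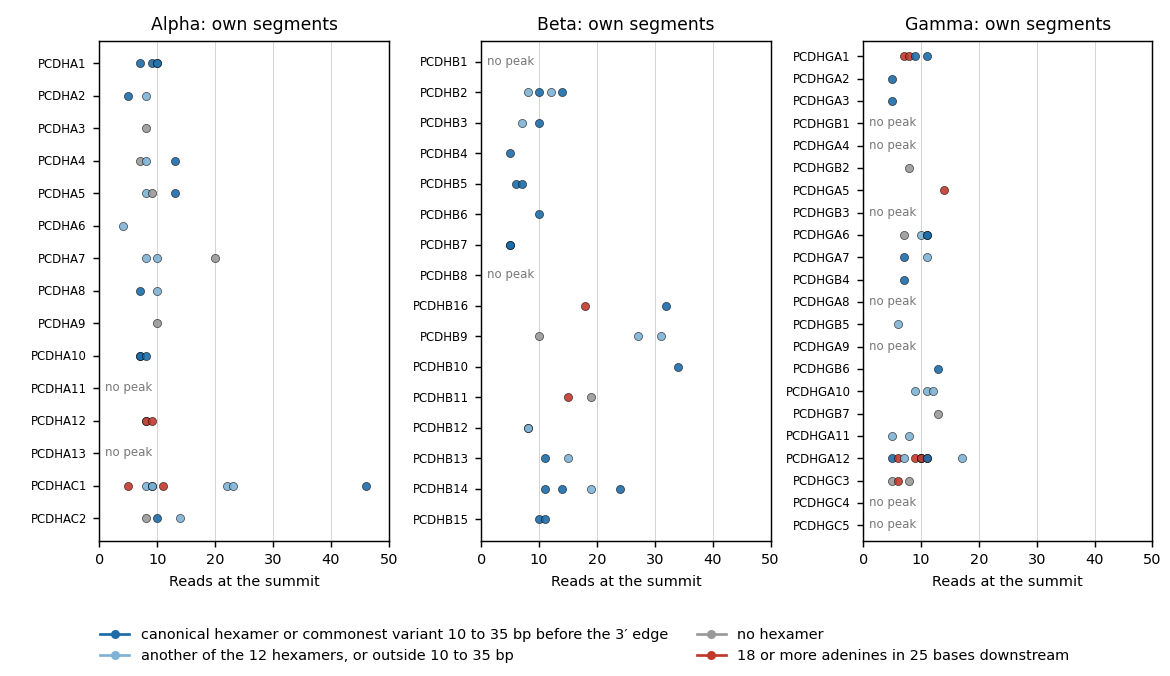
Reads at the summit of every member peak in the segment of a single gene (horizontal axis), 1 line per gene in chromosomal order, coloured by the sequence beside the peak as in the map of the clusters. Most points lie under 20 reads, PCDHAC1 reaches 46, and 11 of the 53 genes have no point.

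In the gamma cluster 15 of 22 genes had a peak in their own segment. PCDHGB1, PCDHGA4, PCDHGB3, PCDHGA8, PCDHGA9, PCDHGC4 and PCDHGC5 had none. No gamma segment peak exceeded 17 reads, so all gamma peaks above that height lay at, between or past the constant exons. The 17-read peak, at chr5:141431001-141431172, was in the variable exon of PCDHGA12, 2011 bp before its splice donor. PCDHGA12 had 10 peaks, the most of any member, in a segment of 45.46 kb.

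The next gamma peaks were at PCDHGA5 with 14 reads (chr5:141367446-141367555), and at PCDHGB6 (chr5:141411804-141411909) and PCDHGB7 (chr5:141418042-141418260) with 13 each. The PCDHGB6 peak had AATAAA 27 bp before its edge. The PCDHGA5 peak had AATAAA 17 bp before its edge but also 18 of 25 A after it. The PCDHGB7 peak lay in the variable exon, and the 100 bases before its edge matched a stretch of the variable exon of PCDHGB6 at 97 positions. No peak was listed at that stretch. The study retained reads that mapped to as many as 20 places, so reads of such a stretch need not belong to one gene. It was the only member peak whose last 100 bases matched another place in the clusters at 95 or more positions.

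In the gamma cluster, a 3′ edge fell within 10 bp of an annotated short end at PCDHGA1, 4 bp before it, at PCDHGA6, 1 bp past it, and at PCDHGA7, 3 bp before it. The PCDHGA6 and PCDHGA7 peaks had 11 and 7 reads, and AATAAA started 27 and 23 bp before their edges. In all, 7 of 22 gamma genes had a peak in the window around such an end, 5 of them with a −log10 q of at least 5. The 67.4% and 64.0% of all protein-coding genes count any annotated transcript end. By that rule every gamma gene had a peak, at the shared constant-exon end, so these values are not like for like.

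The 68 peaks after variable exons ended 133 to 39813 bp past the splice donor, with a median of 2249.5 bp. They were 36 in the alpha and 32 in the gamma cluster, with medians of 2415 and 1914.5 bp. Of the 68, 32 lay within 2 kb and 51 within 5 kb of the donor, and many segments are only a few kb long. The farthest were in the long segments of PCDHAC1 and PCDHGA12.

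**Figure D3:**
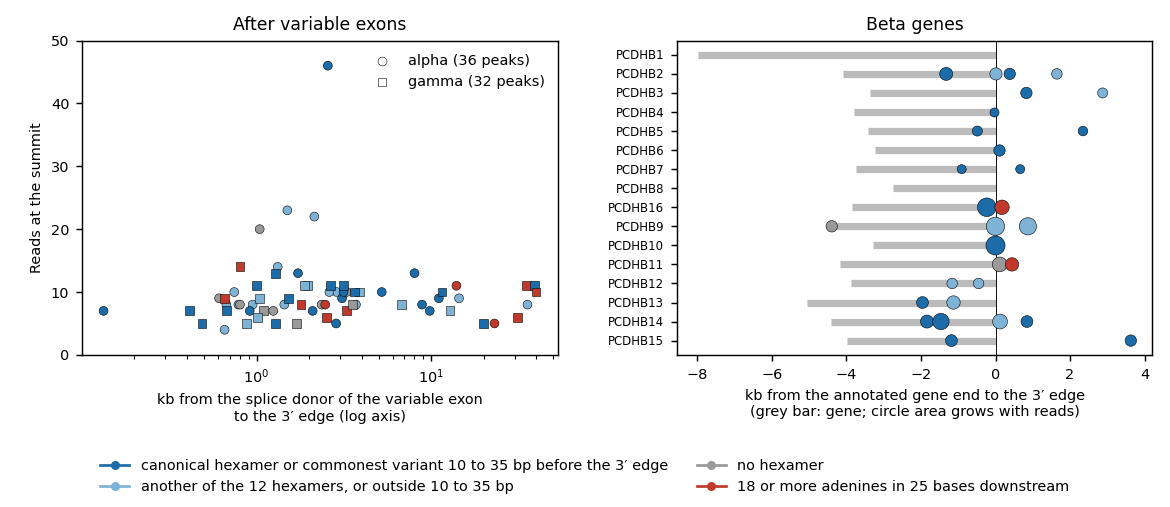
Left, distance from the splice donor of the variable exon to the 3′ edge of each of the 68 peaks after variable exons (kb, log axis) against reads at the summit. Right, distance from the annotated gene end to the 3′ edge of each beta peak (kb) with 1 line per gene and the gene as a grey bar, in which PCDHB9 and PCDHB10 have an edge within 3 bp of the gene end.

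Each beta gene is a single exon with its own stop codon and end, so a beta peak was given to a gene by position, although 25 of the 30 beta peaks also lay in a gene of the minus strand and the list has no strand. Of the 16 beta genes, 14 had a peak, and PCDHB1 and PCDHB8 had none. Of all 1130 single-exon protein-coding genes, 41.9% had a peak in the body or up to 4 kb past the end. A peak in the window around an annotated transcript end was found for 8 of the 16 beta genes, against 26.1% of single-exon genes and 67.4% of all protein-coding genes. With a −log10 q of at least 5 the count was 6 of 16, against 23.7% and 64.0%. The heights of the tallest such peak were 34 reads at PCDHB10, 24 at PCDHB14, 19 at PCDHB11, 18 at PCDHB16, 14 at PCDHB2, 10 at PCDHB6, 8 at PCDHB12 and 5 at PCDHB4. Their median of 16 reads compared with 25 for single-exon genes and 24 for all protein-coding genes that had such a peak.

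The tall beta peaks lay next to each other. PCDHB16, PCDHB9 and PCDHB10 are neighbours, and their tallest peaks had 32, 31 and 34 reads at the summit, each more than at least 94.5% of listed peaks. The density around these peaks was 196, 303 and 242 reads per 10 kb, compared with a median of 92 over beta peaks. The PCDHB10 peak (chr5:141195514-141195645) ended 2 bp before the annotated gene end, with AATAAA 26 bp before the edge. The PCDHB16 peak (chr5:141185697-141185992) ended 234 bp before the gene end with ATTAAA 22 bp before its edge. On the minus strand AATAAA started 25, 21 and 17 bp before its left edge. A second PCDHB16 peak, with 18 reads, ended 172 bp past the gene end and had 18 of 25 A after it. On the minus strand that peak had ATTAAA 22 bp before its left edge. Both peaks also lay in genes of the minus strand, so their reads cannot be assigned to either strand from the list alone.

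PCDHB9 showed why the edge and the summit of a peak can give different answers. Its peak at chr5:141191185-141191538 ended 3 bp before the annotated end, but its summit lay 306 bp before that end, outside the window, so PCDHB9 was not among the 8 genes above. The only hexamers before its edge were AATACA at 47 bp and AAGAAA at 42 bp, and at most 17 of 25 bases after it were A. A second PCDHB9 peak with 27 reads ended 867 bp past the gene end. Another, with 10 reads, had its summit in the first bases of PCDHB9, just past PCDHB16, and by position alone could come from either gene.

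PCDHB14 had 4 peaks, and its tallest, with 24 reads at chr5:141226162-141226295, ended 1464 bp before the gene end with AATAAA 26 bp before the edge. The peaks of PCDHB14 also lay in ENSG00000279983, a protein-coding readthrough gene that the annotation places on the same strand. PCDHB11 had a peak of 19 reads whose edge was 111 bp past the gene end and that had no hexamer, and one of 15 reads farther on before the A-rich run printed above. PCDHB2 had 4 peaks, the tallest with 14 reads, PCDHB13 reached 15, PCDHB15 11, and PCDHB3 and PCDHB6 10 each. The remaining beta genes were low, with 8 reads at PCDHB12, 7 at PCDHB5 and 5 at PCDHB4 and PCDHB7. Height along the beta cluster therefore did not fall or rise steadily with position.

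The polyadenylation signal was a measure that the choice of members had not used. At least 1 of the 12 hexamers lay in the 100 bases before the 3′ edge of 89 of the 117 member peaks (76.1%, 95% Wilson interval 67.6 to 82.9%). The share was 59.2% over the 155686 peaks at protein-coding genes of 1 strand. On the opposite strand of the same member peaks, read before the left edge, it was 49.6%. AATAAA or its commonest variant ATTAAA started 10 to 35 bp before the edge of 47 member peaks (40.2%, interval 31.7 to 49.2%), compared with 25.6% over all gene peaks and with 15 member peaks (12.8%) on the opposite strand. In these 47 peaks the hexamer started a median of 24 bp before the edge.

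**Figure D4:**
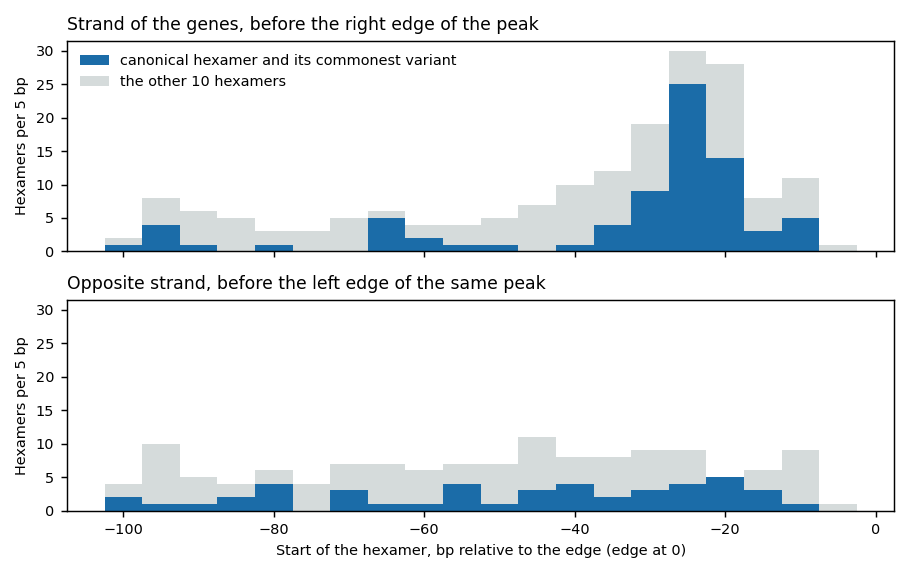
Number of hexamers per 5 bp (vertical axis) against their start relative to the edge of the peak in bp, over the 117 member peaks, on the strand of the genes (top) and on the opposite strand (bottom), with the canonical hexamer and its commonest variant in blue. Hexamers gather 20 to 30 bp before the edge on the strand of the genes and are spread out on the opposite strand.

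By cluster, a hexamer was present at 34 of 47 alpha peaks (72.3%, interval 58.2 to 83.1%), 27 of 30 beta peaks (90.0%, interval 74.4 to 96.5%) and 28 of 40 gamma peaks (70.0%, interval 54.6 to 81.9%). The intervals of the 3 clusters overlapped. Only the beta interval lay above the 59.2% of all gene peaks, and the alpha and gamma intervals included it. AATAAA or ATTAAA stood 10 to 35 bp before the edge of 31.9% of alpha, 56.7% of beta and 37.5% of gamma peaks. Single hexamers differed in how far they favoured the strand of the genes. AATAAA was found at 48 peaks on that strand and 25 on the other, and ATTAAA at 17 and 8. AAGAAA, at 16 and 16, and AGTAAA, at 11 and 11, were equally frequent on both.

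Some member peaks lay inside genes annotated on the minus strand, which matters because the list has no strand. There were 41 such peaks, of which 15 were alpha, 25 beta and 1 gamma. Among them, AATAAA or ATTAAA stood 10 to 35 bp before the 3′ edge for 19 (46.3%) and before the left edge on the minus strand for 12 (29.3%). Among the other 76 peaks the counts were 28 (36.8%) and 3 (3.95%). Over all members, such a hexamer stood before the left edge on the minus strand for 8 alpha, 5 beta and 2 gamma peaks. The strand from which the reads of single peaks came was not tested.

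A-rich stretches were less frequent than hexamers. At least 22 of 25 consecutive bases, within 50 bases after the edge, were A for 4 member peaks (3.42%, interval 1.34 to 8.46%). The share over all gene peaks, 5.11%, lies within that interval. The 4 peaks were 1 each of PCDHAC1 and PCDHB11 and 2 of PCDHGA12, with 5 to 15 reads, and none of the 4 had a hexamer. The methods of the study describe removing peaks of this kind as false positives. With 18 A of 25 the count was 14 (12%, interval 7.26 to 19.1%), compared with 23.7% over all gene peaks, and 8 of these 14 were gamma peaks. The gamma interval, 10.5 to 34.8%, included that share, and the alpha and beta intervals lay below it. Of the 10 peaks whose last 100 bases matched another place in the clusters at 80 or more positions, 7 had such a stretch.

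**Figure D5:**
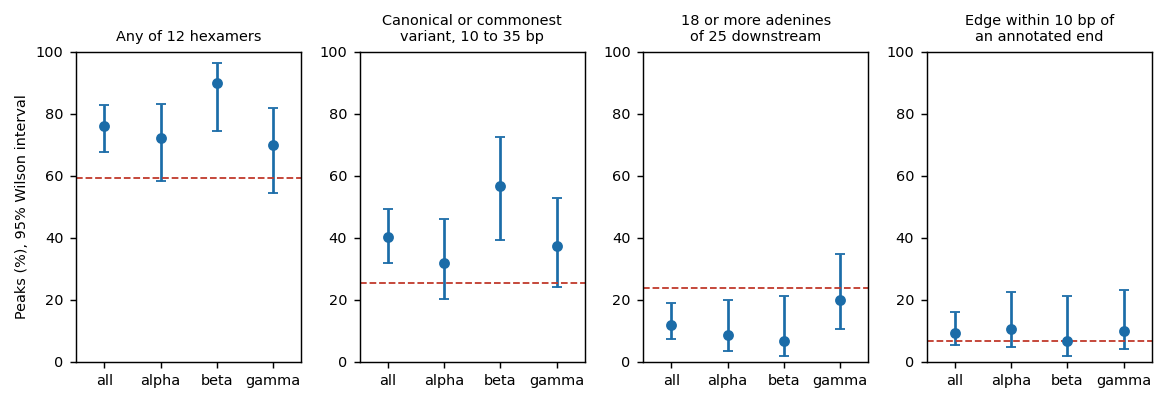
Share of member peaks (%, points with 95% Wilson intervals) in all 3 clusters together and in each, for 4 features of the sequence or position at the 3′ edge, with the share over all 155686 peaks at protein-coding genes of 1 strand as a dashed line. Over all members, the intervals lie above the line for both kinds of hexamer (76.1% and 40.2%), below it for the adenine stretch (12%) and across it for the annotated ends (9.40%). By cluster, only the beta intervals lie above the line for the hexamers, and those of alpha and gamma cross it.

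The 3′ edge of 11 member peaks (9.40%, interval 5.33 to 16.1%) lay within 10 bp of an annotated end of a member transcript, compared with 6.74% of all gene peaks. These were 3 of the constant-exon peaks and the PCDHA4, PCDHA5, PCDHA10, PCDHGA1, PCDHGA6, PCDHGA7, PCDHB9 and PCDHB10 peaks described above. The interval includes the share of all gene peaks.

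Genes whose products act with the clustered protocadherins were described by their transcript-end peaks, against 67.4% of all protein-coding genes. Of 12 protocadherins outside the clusters, 8 had such a peak, with 50 reads at PCDH8, 39 at PCDH10 and 32 at PCDH18, and PCDH7, PCDH11X, PCDH12 and PCDH15 had none. PCDH10 is a plus-strand gene at 133149294 to 133208606. Its summit, at 133153859, lay at an annotated transcript end near the gene start and not at the far 3′ end. All 11 chromatin factors that act on the clusters had one, among them SETDB1, a histone H3 lysine methyltransferase, with 67 reads, RAD21, a cohesin subunit, with 33, and CTCF, the insulator protein, with 32. The SETDB1 summit, at 150965272, lay past the annotated gene end at 150964744. Since the list has no strand, the reads of that peak cannot be assigned to SETDB1 from the list alone. Of 15 binding partners, proteases and signalling genes, 13 had a transcript-end peak. There were 35 reads at ABI1 and 33 at WASF1, both of the WAVE complex that builds branched actin, and 32 each at PTK2, CYFIP2 and ADAM10. ADAM10 is a minus-strand gene at 58588809 to 58749791. Its summit, at 58747359, lay at an annotated transcript end near the gene start and not at the far 3′ end. BRK1 and MARCKS had no peak in the window, although 6 and 5 peaks lay elsewhere in or just past them, so a gene without a transcript-end peak was not a gene without peaks.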

How the data were processed

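Poly(A) 3′-end libraries (QuantSeq REV) of IMR-32 cells were sequenced in 3 groups of 2. Per the methods and labels, the authors mapped reads to GRCh38 with STAR 2.5.1b, merged the samples and called peaks once with MACS2 2.1.1, extending reads to 100 bp, without a control. Which samples were merged is not listed, and all 6 libraries are assumed. Depth per library is not given in the sources used here. The deposited values are a fold enrichment (ratio of pileup plus 1 to background plus 1) and the −log10 p-value and −log10 q-value of each summit. The deposited score, derived from the −log10 q-value, was not used. No other per-sample columns were present.

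Reads at the summit and background were solved from fold and p, with a largest misfit in −log10 p of 0.000172. On simulated peaks 7131 of 7131 were recovered. At 22.2% of listed peaks the background was at its floor, and at 100% of the others it was a whole number of reads per 10 kb within 0.05 reads. Gene models came from Gencode release 44 (release 27 in the study). Hexamers were searched in the 100 bases before the 3′ edge, A stretches in the 50 bases after it, and matches elsewhere only within the clusters. The 12 hexamers were AATAAA and ATTAAA and the variants AGTAAA and TATAAA and CATAAA and GATAAA and AATATA and AATACA and AATAGA and AAGAAA and ACTAAA and AATGAA, on both strands, and they can overlap. An end window ran from 200 bp before to 600 bp after an annotated transcript end. All coordinates are 1-based.

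All 53 genes were accounted for. Named with values were the C-type isoforms, the constant-exon peaks, the tallest peak of each beta gene, the 5 tallest peaks of single alpha and gamma genes, the tallest constant-intron peak, any peak past a cluster end and members without a peak. In related lists these were the 3 tallest transcript ends, with ties, and genes without one. The members and lists were chosen with earlier results of these data known. Several further peaks were named after their values were seen. No test between groups was possible. Intervals are 95% Wilson intervals. Python 3.11.15, pandas 2.3.3, NumPy 2.4.6, SciPy 1.17.1 and matplotlib 3.10.9 were used.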

Additional observations from a re-analysis of the deposited data

How the results depend on the processing

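No paired analysis was possible because reads of every library were merged before peaks were called, and for the same reason no replicate could be left out. With a −log10 q of at least 20, a stricter cutoff that leaves fewer peaks by construction, 5 member peaks in the segments of 3 genes remained, 1 beta gene had a transcript-end peak, and the shares with an A stretch, in variable exons and at constant-exon ends were 0%, 0% and 0%. A hexamer was found at 41.0% of member peaks for AATAAA alone, at 40.2% with the search window ending at the summit and at 49.6% on the opposite strand. An A stretch followed 12% of them when 18 of 25 A sufficed, 0% on the opposite strand and, by construction, 0% once those with an A stretch but without a hexamer were left out. Counting only variable exons and beta gene bodies, 18 of the 53 genes had a peak, instead of 42. The constant-exon ends held 4.79% of summed fold enrichment, instead of 6.09% of reads. The other 21 values, including all those at a −log10 q of at least 5 (79 member peaks, 33 genes, 6 beta genes), moved by less than 1.5 times or stayed within their counting intervals.

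Member peaks had a median of 10 reads at the summit over all libraries together. The depth of the libraries is unknown, so a gene without a peak is only not detected in this list, and an isoform that ends at the constant exons leaves no peak of its own. Without strand or library values, the part of minus-strand transcripts and of THZ531 in any peak was not tested.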

Other observations

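Of the 136 peaks from the start of the alpha cluster to 4 kb past the end of the gamma cluster, 19 belonged to no member. Of these, 8 lay in TAF7, a gene of the general transcription machinery on the minus strand, with 6 to 31 reads at the summit. A peak of 7 reads at chr5:141237425-141237529 ended on the annotated end of PCDHB18P, a beta-like gene without a protein product in the annotation, at 141237529, with AATAAA 33 bp before the edge. A peak of 5 reads at chr5:141158958-141159057 ended 4 bp before the end of the long noncoding gene ENSG00000290893, at 141159061, with AATAAA 19 bp before the edge.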
